A study of Vitis riparia with 12 samples.

Results

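The genes described here are 5 gene models of grapevine, the 4 that the study listed under glutathione reductase (GR) in its account of enzymes that scavenge reactive oxygen species (ROS), and the ascorbate peroxidase gene APX3. They are 5 of the 29966 genes in the count tables. The study picked them by identifier from its own list, in which all 5 stood as differentially expressed genes (DEGs) of the shoot and 1 also of the root. A change under water deficit in the same libraries is therefore no independent evidence, whereas the contrast between watered shoot and watered root tips was not part of that choice. The libraries hold total RNA of the tips of roots and shoots from potted vines of Vitis riparia, a wild North American grape species used in rootstock breeding, on day 14 of treatment. Water deficit (WD) vines received no water and control (C) vines received 2 L daily. The 12 libraries form 4 groups of 3 replicates, C root, WD root, C shoot and WD shoot, and each replicate combined 3 vines. The reads were aligned to the PN40024 genome of a related species, Vitis vinifera, so that genes that differ between the species may be undercounted.

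GR uses NADPH to return oxidised glutathione to its reduced form. Reduced glutathione in turn serves dehydroascorbate reductase, which restores ascorbate, and ascorbate is the electron donor with which ascorbate peroxidase turns hydrogen peroxide into water. These reactions form the ascorbate-glutathione cycle, which runs in chloroplasts, mitochondria, peroxisomes and the cytosol of plant cells and is widely studied under drought. Alcohol dehydrogenases (ADH) interconvert alcohols and aldehydes with a nicotinamide cofactor and are best known in plants for ethanol fermentation when oxygen is short.

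Of the 4 genes listed as glutathione reductases, 2 carry that name in their own symbol or annotation, which is all that could be compared here. VIT_05s0051g00870 carries the symbol ATGR1, after GR1 of Arabidopsis thaliana, an enzyme of the cytosol and peroxisomes in that species, and VIT_07s0141g00390 is annotated as glutathione reductase (NADPH) and is called GR (NADPH) here. The other two, VIT_06s0004g04310 and VIT_18s0001g06360, carry the symbol ADH in the same list, and the study annotated VIT_18s0001g06360 elsewhere as an alcohol dehydrogenase. They are called the chromosome 6 ADH and the chromosome 18 ADH below and are described apart from the GR pair. VIT_03s0038g02320 is APX3, annotated as an L-ascorbate peroxidase, and shares its symbol with a peroxisomal membrane enzyme of Arabidopsis.

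In the 12X V1 annotation of PN40024 that the deposited tables use, ATGR1 lay on chromosome 5 from 12014585 to 12073403, a span of 58.8 kb. GR (NADPH) lay on chromosome 7 from 228930 to 236292, and APX3 on chromosome 3 from 1587629 to 1594603. The chromosome 6 ADH ran from 5282931 to 5294571, and the chromosome 18 ADH, the shortest of the 5 models at 2.73 kb, from 4760149 to 4762878. None of the 5 overlapped another gene model, and the nearest neighbour was between 792 and 28232 bp away.

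The depth on genes ran from 14376065 to 22800079 reads in root libraries and from 17429395 to 27769527 in shoot libraries. Levels are given as CPM, the reads on a gene relative to the library's total on all genes, scaled by the TMM method over all 12 libraries. A level per gene in bulk tissue cannot tell fewer cells of a type from less RNA per cell. The tests are edgeR's quasi-likelihood tests, two-sided, with p-values adjusted by Benjamini and Hochberg over all tested genes and a threshold of 0.05, and log2FC stands for the log2 ratio of WD to C. All 5 genes passed the filter on low counts in every comparison. The summed RPKM of 10 nuclear photosynthesis genes, which mark green tissue, was 4512 to 8285 in the shoot libraries, 7.26 to 9.02 in C root and 33.1 to 68.1 in WD root, with at most 1 of the 10 genes at 0 in any library. The shoot and root labels thus fitted the libraries, and WD root held more of these transcripts than C root. Some of these marker genes were among the study's own root DEGs.

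The GR pair had opposite preferences for organ. ATGR1 was at 200, 210 and 195 CPM in C root replicates 1 to 3 and at 105, 106 and 101 CPM in C shoot. GR (NADPH) was at 38.8, 34.0 and 44.7 CPM in C root and at 91.1, 62.3 and 67.1 CPM in C shoot. Neither gene's watered groups overlapped between organs, as was so for 67.7% of the 21267 tested genes: ATGR1 was the root-weighted gene of the pair and GR (NADPH) the shoot-weighted one. APX3 was also shoot-weighted, with 36.7, 44.7 and 32.1 CPM in C root against 189, 114 and 126 CPM in C shoot.

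The ADH pair split by organ too. The chromosome 6 ADH was low in roots, with 0.944, 1.73 and 0.417 CPM in C root, which rest on 19, 39 and 7 reads, and had 10.1, 13.9 and 13.9 CPM in C shoot. The chromosome 18 ADH had 47.2, 57.8 and 53.1 CPM in C root and 14.5, 13.5 and 20.1 CPM in C shoot. For both ADH genes, too, the ranges of the watered root and watered shoot libraries lay apart, as in 67.7% of tested genes.

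**Figure D1:**
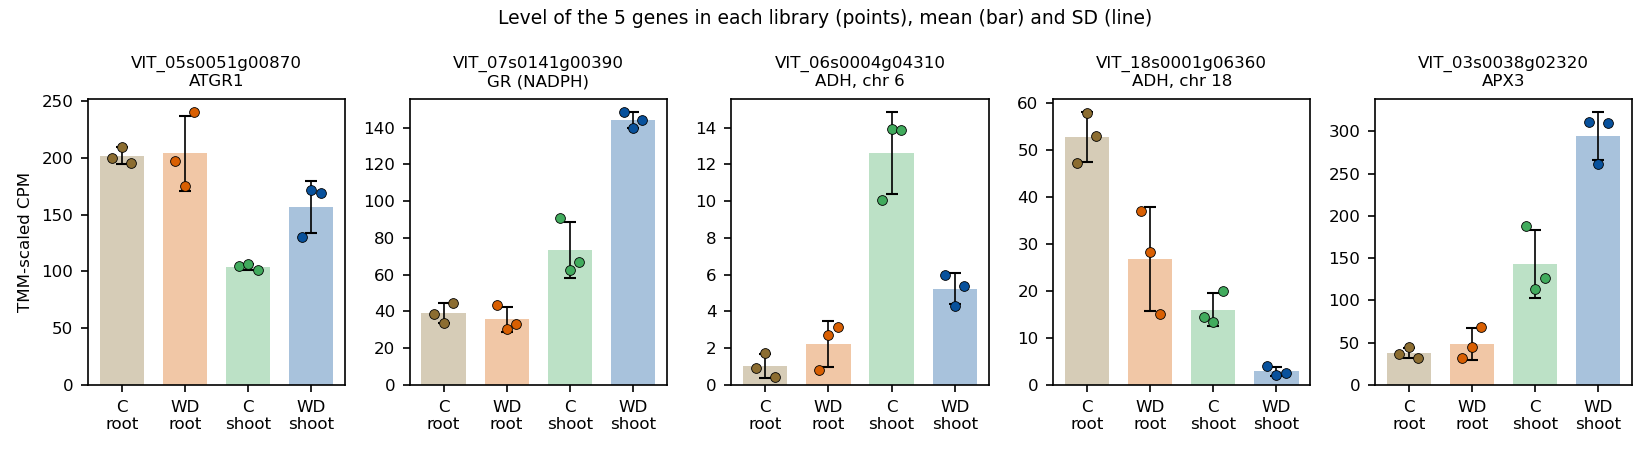
TMM-scaled CPM (y axis) of the 5 genes in the 4 groups (x axis), with a point for each library in the order of replicates 1 to 3, a bar for the mean and a line for the SD, n = 3. The y axes differ between panels. ATGR1 stands near 200 CPM in both root groups and lowest in C shoot, GR (NADPH) and APX3 are highest in WD shoot, and the chromosome 18 ADH is lowest in WD shoot.

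All 5 genes differed between C shoot and C root, where 52.0% of the 21267 tested genes did (27.3% higher and 24.7% lower in shoot), so a difference between organs was common in these libraries. GR (NADPH), APX3 and the chromosome 6 ADH were higher in shoot. Their log2 ratios of C shoot over C root were 0.91 ± 0.19 (SE, edgeR adjusted p = 0.00216), 1.91 ± 0.29 (adjusted p = 2.74e-04, 3.77-fold) and 3.59 ± 0.55 (adjusted p = 3.11e-04, 12.0-fold). ATGR1 was lower in shoot by a log2 ratio of -0.95 ± 0.16 (adjusted p = 5.52e-04), and the chromosome 18 ADH by -1.72 ± 0.33 (adjusted p = 0.00137, 3.29-fold). The median size of the log2 ratio over all tested genes was 0.835, so that ATGR1 and GR (NADPH) differed by about as much as the typical gene, and the chromosome 6 ADH by more than 85.5% of genes. All 5 kept this call in every alternative in which they could be tested.

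In shoot, both GR genes and APX3 rose under WD and both ADH genes fell. ATGR1 reached 130, 172 and 169 CPM in WD shoot, against 101 to 106 CPM in C shoot. GR (NADPH) reached 148, 140 and 144 CPM, against 62.3 to 91.1 CPM, a change from 73.5 ± 15.4 to 144 ± 4.22 CPM (SD, n = 3). APX3 reached 312, 261 and 309 CPM, a change from 143 ± 40.2 to 294 ± 28.4 CPM (SD, n = 3). For all 3 genes every WD library lay above every C library, and 50.2% of tested genes showed such a separation in either direction. The spread behaved differently within them: in ATGR1 the C libraries were tight and WD replicate 1 lay low, while in GR (NADPH) and APX3 C replicate 1 lay above the other C libraries.

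The ADH pair went the other way. The chromosome 6 ADH had 5.99, 4.31 and 5.39 CPM in WD shoot, a change from 12.6 ± 2.21 to 5.23 ± 0.852 CPM (SD, n = 3). The chromosome 18 ADH had 4.02, 2.1 and 2.66 CPM, from 67, 41 and 43 reads, a change from 16.0 ± 3.56 to 2.93 ± 0.982 CPM (SD, n = 3). In both, every WD library lay below every C library, where 50.2% of tested genes had WD and C apart in either direction. The fall of the chromosome 18 ADH was the largest change among the 5 genes.

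The edgeR test called all 5 in shoot, 3 higher and 2 lower, where 27.1% of 19569 tested genes were called (13.1% higher and 14.0% lower). Since the study chose these genes as shoot DEGs on the same libraries, that count is a description. The log2FC was 0.57 ± 0.17 (SE, adjusted p = 0.0476) for ATGR1, 0.95 ± 0.17 (adjusted p = 0.0141) for GR (NADPH) and 1.03 ± 0.22 (adjusted p = 0.0209) for APX3. It was -1.30 ± 0.25 (adjusted p = 0.0156) for the chromosome 6 ADH and -2.48 ± 0.31 (adjusted p = 0.00897, 5.58-fold lower) for the chromosome 18 ADH. The WD and C libraries of all 5 did not overlap, which held for 50.2% of tested genes. In size, the log2FC of ATGR1 sat at the middle of all tested genes (percentile 51.4), those of GR (NADPH), APX3 and the chromosome 6 ADH at percentiles 70, 72.4 and 79.5, and that of the chromosome 18 ADH at percentile 94.1. The median log2FC of all tested genes was -0.02.

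How firmly each call stood differed between the genes. The chromosome 18 ADH was called in all 15 alternatives to the processing, including each library left out (adjusted p from 3.54e-11 to 0.0490). The ATGR1 call was lost in 11 of the 15, among them total counts in place of TMM (adjusted p = 0.116), no filter on low counts (0.0622) and limma on the deposited RPKM (0.151 and 0.179). GR (NADPH), the chromosome 6 ADH and APX3 lost theirs in 2, 3 and 4 of the 15. Leaving out WD shoot replicate 2 or C shoot replicate 3 left 1 call among the 5, that of the chromosome 18 ADH (adjusted p = 0.0462 and 0.0490). Leaving out C shoot replicate 2 or WD shoot replicate 3 left 3. Without C shoot replicate 3, the calls over all genes also fell, from 5301 to 632, which is not specific to these 5 genes.

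**Figure D2:**
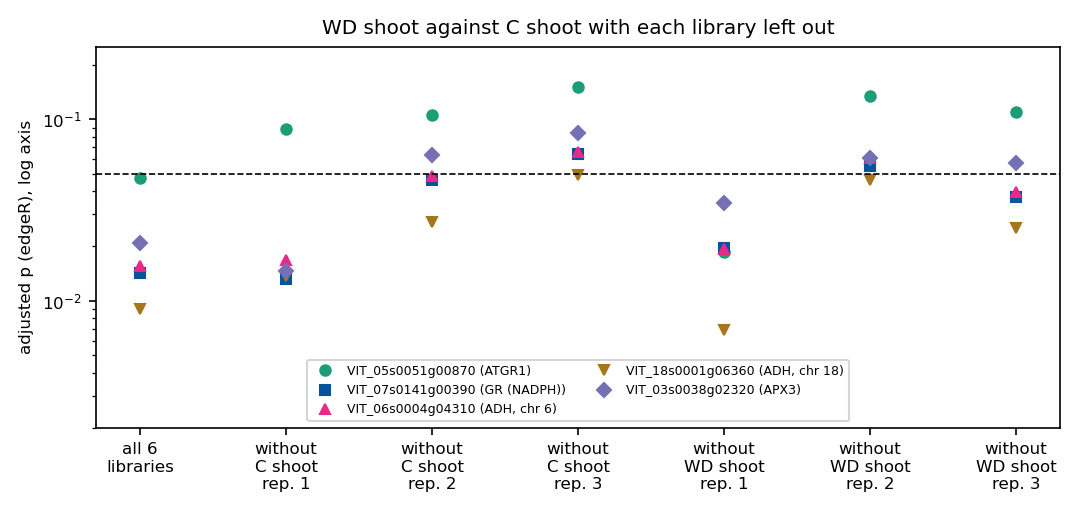
Adjusted p (edgeR, log axis) of WD shoot against C shoot for the 5 genes, with all 6 libraries and with each library left out (x axis). The dashed line is the threshold of 0.05, and the chromosome 18 ADH (triangles pointing down) stays below it throughout, while ATGR1 (circles) crosses it when any of 5 libraries is left out.

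In root, edgeR called none of the 5, in a comparison where it called 0 of 19545 genes (0%). ATGR1 had 197, 175 and 240 CPM in WD root and a log2FC of 0.02 ± 0.17 (SE, 95% interval -0.39 to 0.44, adjusted p = 0.961). GR (NADPH) had 43.5, 30.4 and 33.3 CPM and a log2FC of -0.13 ± 0.20 (95% interval -0.60 to 0.34, adjusted p = 0.812). For both GR genes the WD and C root libraries overlapped. APX3 had 32.5, 44.5 and 68.6 CPM in WD root and a log2FC of 0.37 ± 0.29 (95% interval -0.33 to 1.07, adjusted p = 0.701). Without WD root replicate 3, the highest library, the APX3 log2FC was 0.03.

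The chromosome 18 ADH was the 1 gene of the 5 with an unadjusted p under 0.05 in root, as were 9.06% of tested genes. It had 37.1, 28.4 and 15.1 CPM in WD root, all below the 47.2 to 57.8 CPM of C root, a separation that 15.0% of tested genes showed. Its log2FC was -0.97 ± 0.32 (SE, 95% interval -1.73 to -0.21, edgeR adjusted p = 0.469), in the same direction as in shoot. The chromosome 6 ADH had 0.810, 2.69 and 3.16 CPM in WD root, from 12, 54 and 81 reads, and in 7 of 9 pairings of a WD with a C library the WD value was higher. Its log2FC was 1.11 ± 0.65 (95% interval -0.44 to 2.67, adjusted p = 0.653). At 7 to 81 reads per library this root value is imprecise, and the log2FC moved to 1.69 without C root replicate 2 and to 0.16 and 0.68 with limma on log2(RPKM + 1) and log2(RPKM + 0.1). DESeq2 likewise called none of the 5 genes in root, though it called 441 of 19512 genes (2.26%).

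**Figure D3:**
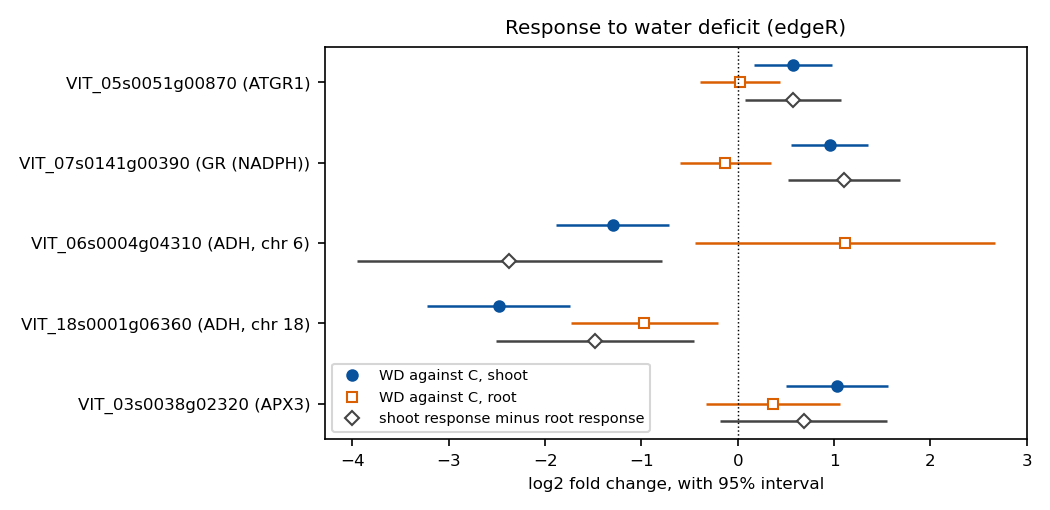
log2 fold change (x axis) with its 95% interval from edgeR for each of the 5 genes (y axis). Filled circles are WD against C in shoot, open squares WD against C in root, and open diamonds the shoot response minus the root response. In shoot the GR pair and APX3 lie right of 0 and the ADH pair left of 0, and in root only the interval of the chromosome 18 ADH leaves out 0.

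Whether the organs responded differently was tested by the interaction term of organ and water. The log2FC in shoot minus that in root was 0.57 ± 0.22 (SE) for ATGR1 and 1.10 ± 0.26 for GR (NADPH). It was -2.37 ± 0.72 for the chromosome 6 ADH and -1.48 ± 0.47 for the chromosome 18 ADH. For APX3 the difference was 0.68 ± 0.39 (95% interval -0.18 to 1.55, edgeR adjusted p = 0.362). An unadjusted edgeR p under 0.05 was found for 4 of the 5, all but APX3, where 19.7% of 21267 tested genes had one. None of the 5 passed after adjustment (adjusted p from 0.0737 for GR (NADPH) to 0.362 for APX3), and 0.607% of genes did. DESeq2 called 3 of the 5, GR (NADPH) (adjusted p = 0.00634), the chromosome 6 ADH (0.0188) and the chromosome 18 ADH (0.0414), where it called 9.04% of genes. The study had listed all 5 as shoot DEGs on these libraries, and most of them not as root DEGs, so these counts are descriptions. With edgeR the organs are thus not shown to differ in their response for any of the 5, and the call for 3 of them turned on the tool.

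For ATGR1, WD root and C root stood highest (204 ± 32.9 and 201.8 ± 7.48 CPM, SD, n = 3), and their libraries overlapped. WD shoot followed at 157 ± 23.1 CPM, with its highest library just under the lowest WD root library. C shoot was lowest at 104 ± 2.56 CPM. For GR (NADPH) the order was WD shoot, C shoot, C root and WD root, and the root groups, at 39.2 ± 5.35 and 35.7 ± 6.90 CPM, overlapped. APX3 had the same shoot order, with 37.9 ± 6.38 CPM in C root and 48.5 ± 18.4 CPM in WD root, which overlapped. The chromosome 18 ADH fell in the order C root, WD root, C shoot and WD shoot, in which WD root replicate 3 (15.1 CPM) lay inside the range of C shoot. The chromosome 6 ADH fell in the order C shoot, WD shoot, WD root and C root, with overlap in root only.

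The deposited RPKM values gave the same order of groups for every gene. For the chromosome 18 ADH the mean RPKM was 8.25 in C root, 4.37 in WD root, 2.11 in C shoot and 0.356 in WD shoot. For APX3 it was 2.67, 3.64, 8.96 and 17.4 in the same order of groups. RPKM did not serve to rank the genes against each other. The length that RPKM and counts together imply followed the span of a gene with its introns (r = 0.941 between their logarithms over 11934 genes, which are not independent replicates). For ATGR1 the implied length was 4.24 times the span, a ratio above that of 98.2% of genes, against a median ratio of 1.43. No statement is therefore made on which of the 5 genes had the most transcript.

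Summed over the GR pair, C shoot held 178 ± 15.6 CPM and WD shoot 301 ± 19.4 CPM (SD, n = 3), whereas C root and WD root held 241 ± 2.60 and 240.0 ± 33.8 CPM. This sum and the share below are not corrected for gene length, so ATGR1, with an implied length of 249.5 against 16.6 kb, weighs more in both. In mean RPKM, ATGR1 was at 0.826 in C root and 0.404 in C shoot, and GR (NADPH) at 2.50 and 4.32. The order of C root and C shoot in the sum therefore turned on the measure. The sum in WD shoot (278.6 to 313 CPM) lay above all other groups, with its lowest library close to the highest of WD root (273 CPM). The share of the pair's reads that fell on GR (NADPH) was 16.3% ± 2.34 in C root and 15.0% ± 2.96 in WD root, and it was 41.1% ± 4.93 in C shoot and 48.1% ± 4.51 in WD shoot. The organ moved this share far more than the water treatment did. The shoot groups overlapped in it, at 36.9 to 46.5% in C and 44.9 to 53.2% in WD. The mean share on GR (NADPH) was thus higher in WD shoot than in C shoot, a shift that was not tested.

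APX3 was set beside the other ascorbate peroxidase gene of the study's list, VIT_03s0017g00140. That gene had 11.1 ± 3.25 CPM in C root, 7.91 ± 2.85 CPM in WD root, 4.19 ± 0.701 CPM in C shoot and 2.07 ± 0.740 CPM in WD shoot (SD, n = 3). It was the reverse of APX3 between organs, with a log2 ratio of C shoot over C root of -1.40 ± 0.36 (SE, edgeR adjusted p = 0.00764), and it had a log2FC of -1.05 ± 0.34 in shoot (adjusted p = 0.0605). The paper's text counts 2 ascorbate peroxidase genes as up-regulated in WD shoot, without naming them. For VIT_03s0017g00140, the WD value was higher in 0 of 9 pairings of a WD with a C shoot library. APX3 accordingly took 77.0% ± 7.99 of the reads on these 2 genes in C root, 84.4% ± 8.87 in WD root, 97.0% ± 1.02 in C shoot and 99.3% ± 0.229 in WD shoot (SD, n = 3). The WD and C shoot libraries did not overlap in this share, but 3 libraries against 3 cannot give a two-sided exact permutation p under 0.1. The share is of reads and is not corrected for gene length. In mean RPKM, VIT_03s0017g00140 stood above APX3 in C root (20.6 against 2.67) and WD root (17.0 against 3.64). It stood below APX3 in C shoot (7.34 against 8.96) and WD shoot (5.05 against 17.4). The share therefore does not tell which of the 2 genes had more transcript.

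**Figure D4:**
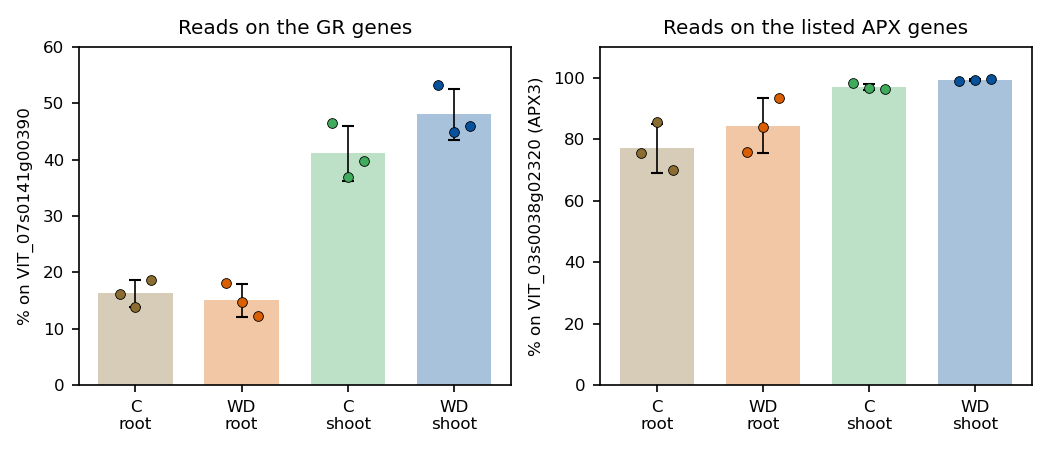
Percent of reads on the 2 GR genes that fell on GR (NADPH) (left) and percent of reads on the 2 listed ascorbate peroxidase genes that fell on APX3 (right), in the 4 groups (x axis). Points are libraries, bars means and lines SD, n = 3. The shares are of reads and are not corrected for gene length. The GR share is 12.2 to 18.6% in the root libraries and 36.9 to 53.2% in the shoot libraries, and APX3 holds 96.2% or more in every shoot library.

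Over the 12 libraries, log2(CPM + 0.5) of GR (NADPH) and APX3 ran together (Pearson r = 0.927, and 0.992 over the 6 shoot libraries), and the chromosome 18 ADH ran against APX3 (r = -0.923). These correlations carry the difference between the 4 groups: for GR (NADPH) and APX3, r was -0.07 for deviations from the group means and -0.755 over the 6 root libraries. They are descriptions of shared libraries and depth. Among 21266 other tested genes, the pattern most like that of ATGR1 was of VIT_09s0054g01090, annotated as cycloartenol synthase (r = 0.985), an enzyme that opens plant sterol synthesis, and of VIT_09s0002g05710, an ATP:ADP antiporter (r = 0.979). The genes most like APX3 were VIT_12s0028g01040 and VIT_18s0122g01160, a 12-oxophytodienoate reductase 2 (both r = 0.995). GR (NADPH) was most like VIT_13s0019g02660 (r = 0.986) and the patatin gene VIT_18s0001g10930 (r = 0.984). In C and WD root, VIT_13s0019g02660 was at 0.868 and 0.752 CPM and VIT_18s0001g10930 at 0 and 0.0225 CPM (means, n = 3). The APX3 match VIT_12s0028g01040 was at 0.209 and 0.379 CPM there. At such levels the added 0.5 weighs heavily in the root values. VIT_18s0122g01160 showed the pattern plainly, with 0.784 and 1.45 CPM in C and WD root and 5.90 and 12.1 CPM in C and WD shoot (means, n = 3).

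For the ADH pair, the most alike genes had no annotation in the sources used here. They were VIT_07s0255g00020 and VIT_11s0016g03560 (both r = 0.971) for the chromosome 6 ADH, and VIT_08s0056g01150 and VIT_08s0007g06390 (both r = 0.986) for the chromosome 18 ADH. VIT_08s0007g06390 was at 139 and 101 CPM in C and WD root and at 62.4 and 23.0 CPM in C and WD shoot (means, n = 3), the same descending order as the chromosome 18 ADH.

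Around GR and APX3, the other genes of the cycle and its supply were tested in shoot, where 13.1% of all tested genes were called higher and 14.0% lower. Both glutathione peroxidase (GPX) genes of the study's list, which reduce peroxides at the expense of thiols, rose: VIT_02s0025g03600 (PHGPX) from 147 ± 12.1 to 502 ± 61.2 CPM (SD, n = 3, log2FC 1.75 ± 0.19, SE, edgeR adjusted p = 0.00818) and VIT_04s0008g06780 (GPX1) with a log2FC of 1.39 ± 0.26 (adjusted p = 0.0154). Without WD shoot replicate 2 or C shoot replicate 3, the 2 GPX calls became 1. The 3 genes that recycle ascorbate did not pass the edgeR test, though all 3 were called with DESeq2, and 2 with edgeR without C shoot replicate 1. The shares above do not apply to those 2 settings, and calls over all genes in shoot ran from 632 to 7414 over the alternatives. The monodehydroascorbate reductase genes VIT_14s0066g01100 and VIT_08s0007g03610 had log2FC values of 0.94 ± 0.29 (adjusted p = 0.0537) and 0.57 ± 0.19 (adjusted p = 0.0627), and the dehydroascorbate reductase gene VIT_14s0006g00630 had 0.98 ± 0.32 (adjusted p = 0.0656). All 3 values were positive and just outside the threshold. Their median log2FC was 0.94, beside -0.02 for all tested genes.

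Of 4 genes for glutathione synthesis and NADPH supply, 2 rose and 1 fell in shoot. VIT_02s0025g03530, gamma-glutamylcysteine synthetase, which makes the first step to glutathione, rose by a log2FC of 0.78 ± 0.15 (SE, edgeR adjusted p = 0.0153). VIT_14s0066g00950, an isocitrate dehydrogenase annotated to the chloroplast, rose by 1.03 ± 0.27 (adjusted p = 0.0346). Glucose-6-phosphate dehydrogenase, which feeds NADPH from sugar phosphate, fell in its chloroplast form VIT_12s0057g01030 (log2FC -3.99 ± 1.15, adjusted p = 0.0444). That gene went from 13.7 ± 6.88 to 0.885 ± 1.32 CPM (SD, n = 3). With 0 to 40 reads per WD shoot library, the size of its fall is imprecise. The cytoplasmic VIT_14s0171g00490 had a log2FC of 0.85 ± 0.32 (adjusted p = 0.0898). The higher calls numbered 0 to 3 over the 15 alternatives and the lower call was lost in 7 of them. Without WD shoot replicate 2 or C shoot replicate 3, none of the 4 was called.

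Glutathione S-transferases use the glutathione that GR keeps reduced. Over all tested genes, 13.1% were called higher in shoot and 14.0% lower. Of 16 tested glutathione S-transferase genes (21 listed), 9 rose and 1 fell in shoot, with a median log2FC of 0.99. Without WD shoot replicate 2 or C shoot replicate 3, the 9 became 4 and the 1 became 0. Among the 6 with the highest levels, VIT_19s0093g00220 (GSTU19) rose by 0.93 ± 0.21 (SE, edgeR adjusted p = 0.0242), VIT_12s0035g02110 (GSTZ1) rose by 0.79 ± 0.13 (adjusted p = 0.0128), and VIT_07s0104g01830 (GSTF8) fell, with a log2FC of -2.72 ± 0.52 (adjusted p = 0.0166). Catalase genes, which break down hydrogen peroxide without ascorbate or glutathione, had 1 of 4 called, VIT_18s0122g01320 (CAT3), with a log2FC of 2.03 ± 0.61 (adjusted p = 0.0493). Of 9 tested genes listed under superoxide dismutase (11 listed), 2 rose and 2 fell. The risers were VIT_06s0061g00750 (CZSOD2), a copper-zinc enzyme, and VIT_02s0025g04830 (CCS), its copper chaperone, and both that fell, VIT_14s0060g00120 (GLP5) and VIT_08s0007g03430, were germin-like genes. The catalase call was lost in 6 of 15 alternatives. In the superoxide dismutase list, the higher calls numbered 0 to 2, with none left without WD shoot replicate 2, and the lower calls 0 to 5, with none left without WD shoot replicate 2 or C shoot replicate 3 and 5 without WD shoot replicate 1. Like the 5 genes described here, most listed ROS enzyme genes had been chosen by the study as DEGs on these libraries. The other lists were also chosen with earlier results of these data known, so their counts of calls are descriptions.

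The ADH pair was set beside the 5 genes that the study annotated as alcohol dehydrogenases in other lists. Those 5 genes too were chosen with earlier results of these data known, so their counts of calls are descriptions. Of the 5, edgeR called 2 higher in shoot and none lower, where 13.1% of all tested genes were called higher and 14.0% lower. An unadjusted edgeR p under 0.05 was found for 3. The 2 calls became 0 without WD shoot replicate 2, WD shoot replicate 3 or C shoot replicate 3, and DESeq2 called 3 higher and 0 lower. The shares above are those of edgeR and do not apply to the DESeq2 count. VIT_18s0001g15450 (alcohol dehydrogenase 3) rose from 127 ± 54.1 to 446 ± 156 CPM (SD, n = 3, log2FC 1.78 ± 0.43, SE, edgeR adjusted p = 0.0286), and VIT_14s0068g01760 rose by a log2FC of 0.81 ± 0.21 (adjusted p = 0.0321). VIT_17s0000g03280 and VIT_04s0044g01130 had negative values that did not pass the test, -0.87 ± 0.38 (adjusted p = 0.127) and -0.51 ± 0.57 (adjusted p = 0.525). The median log2FC of the 5 was 0.81.

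In root, edgeR called 0 of the 47 tested genes of these lists, 15 had an unadjusted p under 0.05 (9.06% of all tested genes did), and DESeq2 called 3 higher and 2 lower (2.26% of all genes in either direction). The green tissue transcripts were higher in WD root than in C root, as given above, and their part in the root values of APX3 and the other shoot-weighted genes was not tested. WD root replicate 1 had the highest summed marker RPKM of its group (68.1). Among the WD root libraries it had the lowest APX3 level (32.5 CPM) and the lowest chromosome 6 ADH level (0.810 CPM). GR (NADPH), also shoot-weighted, was highest in that library (43.5 CPM).

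**Figure D5:**
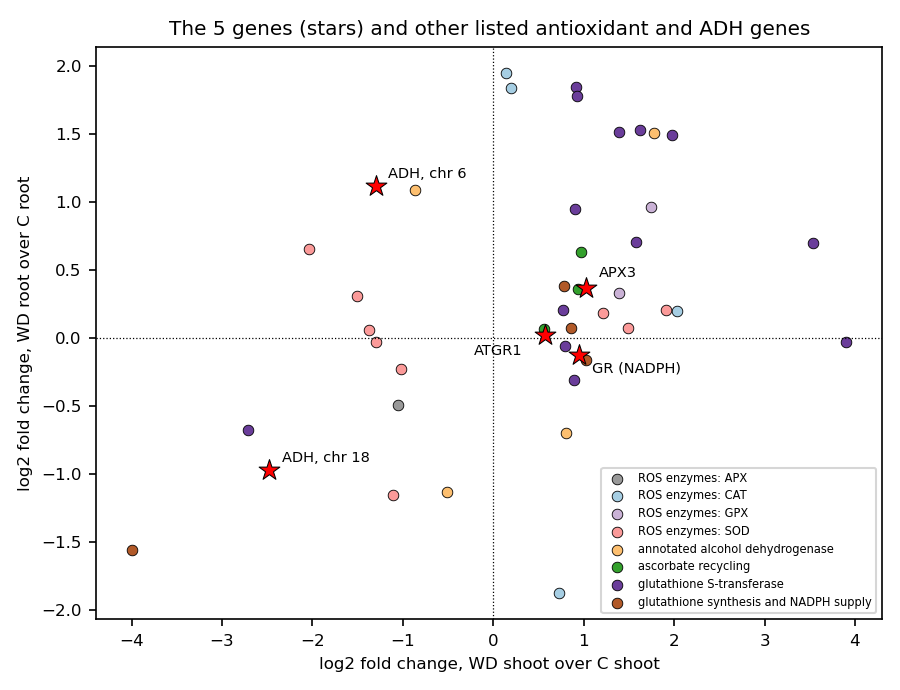
log2 fold change of WD over C in shoot (x axis) and root (y axis) for the 5 genes (stars) and the genes of the other lists tested in both organs (circles, coloured by list). The GR pair and APX3 lie right of 0 with root values between -0.13 and 0.37, the chromosome 18 ADH is negative in both organs, and the chromosome 6 ADH is negative in shoot and positive in root, where it did not pass the test.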

How the data were processed

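The sample labels gave the groups and replicate numbers. According to the paper's methods, the authors filtered the reads, aligned them to V. vinifera PN40024, and deposited raw counts per gene model from htseq-count and RPKM values per library from Cufflinks. The submitters' processing notes name TopHat2 2.0.8, Bowtie2 2.1.0 and Cufflinks 2.2.2, and the paper names another version of Cufflinks. The authors' Cuffdiff tables hold their own comparisons of WD with C (fold changes, p-values) and were not used. Gene positions are those in the RPKM tables. The 5 lines of each count table that name no gene were left out, and 69.1 to 76.5% of the reads in the tables lay on genes.

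Genes were kept with filterByExpr, scaled by TMM and tested with edgeR 4.0.16 (quasi-likelihood, robust, R 4.3.3), within each organ over its 6 libraries and over all 12 libraries for the interaction and the organ contrast. The SE is the log2 fold change divided by the square root of F. Code was tested on simulated data. No library was found deposited under 2 names: chi-square divided by its degrees of freedom was 23.7 to 172 for pairs within a group. Replicates combined different vines, so p-values measure the spread between such pools. The paper describes root and shoot tips as cut at the same time, so root and shoot libraries of a treatment may share vines. The main organ and interaction tests treated all 12 libraries as independent.

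Alternatives were DESeq2 1.42.0, total counts, upper-quartile scaling, no filter, 10 counts in every library, limma 3.58.1 on log2 RPKM with a pseudocount of 1 or 0.1, a single fit of all 12 libraries, the replicate number as a block, and each library left out. The members and lists were chosen with earlier results of these data known. The named genes were all 5 members, up to 6 genes of a list with the highest mean log2 CPM, and the 2 genes most alike each member by Pearson r. Reads with several alignments were not counted, so near-identical copies may be undercounted. Sequences are not shown.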

Additional observations from a re-analysis of the deposited data

Results flagged for a closer look

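VIT_01s0026g01380 (GSTU18), a glutathione S-transferase gene of the lists used here, differed in its response between the organs by 3.96 on the log2 scale (interaction, edgeR adjusted p = 0.0398). It went from 1.28 ± 0.363 to 19.6 ± 5.46 CPM (SD, n = 3) between C and WD shoot (log2FC 3.90, adjusted p = 0.00731) and was at 7.63 ± 2.55 and 7.48 ± 3.32 CPM in C and WD root (log2FC -0.03, adjusted p = 0.981). It was the only one of the 51 listed genes outside the 5 that edgeR called in this test, and it is named here for that result. With 1 library left out, edgeR called 0 to 2 glutathione S-transferase genes higher in this test, and none in 8 of the 12 cases. DESeq2 called 7 of the 51 higher and 2 lower, where it called 9.04% of all genes.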

How the results depend on the processing

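Each of the 5 genes kept its direction in shoot under all 15 alternatives. With 1 library left out, 1 to 5 of them were called in shoot, 0 in root, 0 to 1 for the interaction and 5 between C shoot and C root. The interaction was called for 3 of the 5 with DESeq2. The 1 interaction call appeared without WD root replicate 3 (chromosome 18 ADH, VIT_18s0001g06360, adjusted p = 0.0459) or without C shoot replicate 1 (GR (NADPH), VIT_07s0141g00390, adjusted p = 0.0438). The root log2FC of ATGR1, VIT_05s0051g00870, ranged from -0.11 to 0.12 with 1 library left out and was negative without WD root replicate 3. In shoot the chromosome 6 ADH, VIT_06s0004g04310, lost its call with all 12 libraries in 1 fit (adjusted p = 0.0752). WD and C samples of the same number were not paired (correlations of same-numbered WD and C deviations -0.435 to -0.00895 in root and -0.112 to 0.155 in shoot, 0 and 3 of 6 libraries closest to their own number), and the replicate block left 4 of the 5 called in shoot and 0 in root. Between root and shoot the correlations were 0.03 to 0.298 in WD and 0.00202 to 0.19 in C, with 4 and 2 of 6 libraries closest to their own number, and the block gave 0 calls for the interaction and 5 between organs, as without it. With 10 counts in every library the chromosome 6 ADH could not be tested outside shoot, and a fit of all 12 libraries is no alternative for the contrasts that already use them. Calls over all genes ranged from 632 to 7414 in shoot, from 0 to 441 in root and from 0 to 1917 for the interaction, against 5301, 0 and 129. At 7 to 81 reads, depth limits the root values of the chromosome 6 ADH.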
